A study of Macaca mulatta with 10 samples.

Results

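The mitochondrial ribosomal protein genes were taken as every row of the gene count table whose symbol begins with MRPL or MRPS followed by a number, which gave 81 of 26484 rows. By symbol, 48 were genes of large subunit proteins (MRPL), 29 were genes of small subunit proteins (MRPS), and 4 were 3 pseudogenes (MRPL42P5, MRPL45P2 and MRPS31P5) and 1 antisense gene (MRPL23-AS1). The rule used symbols and no measured value, though it was set with earlier results of these data known. The reads came from rhesus macaques and had been mapped to the human genome. Of the 81 human symbols, 76 also name a gene in the macaque RefSeq annotation, and those that do not are the 4 pseudogene and antisense entries and MRPS36.

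The mitochondrial ribosome translates the few messages encoded in mitochondrial DNA, all of which specify subunits of the respiratory chain and of ATP synthase. Its RNAs come from mitochondrial DNA, while all of its proteins are made from nuclear genes in the cytosol and imported. The small subunit binds and decodes the message and the large subunit forms the peptide bond. In T cells, activation is known to be followed by growth of the mitochondrial pool, in which mitochondrial translation takes part. The symbols are not a perfect guide to the subunit, since the MRPS30 and MRPS18A proteins are now placed in the large subunit, and MRPS36 is now regarded as a component of the 2-oxoglutarate dehydrogenase complex. The counts measure messenger RNA and not translation.

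RNA was sequenced from Tr1 cells, a regulatory subset sorted here by flow cytometry as CD4+ CD49b+ LAG-3+ cells from thawed blood mononuclear cells, with 1 library from each of 10 monkeys. Both cohorts had been made diabetic with streptozotocin, had received an islet allograft matched for one DRB allele, and had received the same transient immunosuppression with an antagonistic anti-CD40 antibody, rapamycin, a soluble TNF receptor and an anti-IL-6 receptor antibody. Cohort B (monkeys 13EP12, 13EP8, 14HP26, 14HP31 and 15CP6) was not given apoptotic donor leukocytes (ADLs). Cohort C (13EP5, 14HP33, 14HP24, 15CP1 and 15CP4) was given infusions of them. According to the labels, cells were taken at sacrifice, on rejection for Cohort B and at the 365-day end point for Cohort C, so that ADLs and the occasion of sampling cannot be told apart. The study's own records differ from the labels for 13EP12 and 13EP8, listed there without rejection, and for 15CP1, which was followed past that end point. The age of each monkey was not used here.

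The libraries differed widely in depth, from 6076 to 1392157 total counts in Cohort B and from 66485 to 5895609 in Cohort C, and only 4 held more than 1000000 counts (13EP12 and 13EP8 in Cohort B, 13EP5 and 15CP1 in Cohort C). In 14HP33 the MTRNR2L genes, nuclear copies that resemble mitochondrial ribosomal RNA, took 87.0% of all counts, against 3.09 to 43.4% in the other libraries. Transcripts of the sorting markers were sparse. CD4 had counts in 6 libraries, ITGA2, the gene of CD49b, in 4, and LAG3 in 3 (10 in 13EP12, 16 in 13EP5 and 12 in 15CP1). All 3 were at 0 in 14HP26, 14HP31, 14HP33 and 15CP4. In bulk RNA, fewer expressing cells and less RNA per cell cannot be told apart.

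The number of members detected was highest in the 4 libraries over 1000000 counts and overlapped between the cohorts, but it did not follow total counts throughout. In Cohort B, at least 1 count was found for 41 of the 81 members in 13EP12, 47 in 13EP8, 20 in 15CP6, 7 in 14HP26 and none in 14HP31. In Cohort C the numbers were 76 in 15CP1, 73 in 13EP5, 13 in 14HP24, 4 in 14HP33 and 1 in 15CP4. With 968423 counts, 14HP33 showed fewer members than 15CP6, 14HP24 and 14HP26, which had 455470, 136954 and 113884. However, the MTRNR2L genes took 87.0% of the counts of 14HP33, and 24.1, 23.8 and 28.8% of those of the others. The 2 most complete libraries were both from Cohort C and were also the 2 deepest, and the ranges of the cohorts overlapped (median 20 in Cohort B and 13 in Cohort C, n = 5 each). Requiring more than 3 counts, the level taken as the floor of a library, left 32, 42, 15, 5 and 0 members in the same order in Cohort B and 71, 68, 7, 3 and 1 in Cohort C. Reduced by calculation to the 6076 counts of the smallest library, every library was expected to show fewer than 7 members, with 6.39 in 13EP5, 5.34 in 15CP1, 5.46 in 13EP8, 4.32 in 13EP12 and 0.123 in 14HP33.

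In the 4 deepest libraries the members were detected more often than genes at large. A count was present for 93.8% of members and 56.9% of all genes in 15CP1, for 90.1% and 44.8% in 13EP5, for 58.0% and 38.6% in 13EP8, and for 50.6% and 33.6% in 13EP12. In 4 of the 6 others the order was the opposite, as in 14HP26 with 8.64% of members and 10.4% of all genes, and 14HP33 with 4.94% and 6.26%.

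The shallower libraries placed their member counts on few genes. In 14HP26, 165 member counts fell on 7 genes, whereas 165 counts drawn at random from the member counts of 15CP1 would be expected to fall on 57.5. In 15CP6, 739 counts fell on 20 genes against 70.5 expected, and in 14HP24, 100 counts fell on 13 against 48.2. The same was true, to a lesser extent, of the Cohort B libraries over 1000000 counts, with 41 genes against 71.4 in 13EP12 and 47 against 72.5 in 13EP8. In 13EP5 it was slight (73 against 74.9). The genes of the nuclear-encoded respiratory chain and ATP synthase subunits had the same pattern, with 49 genes in 13EP12 against 76.8 expected and 17 in 15CP6 against 70.8. The cytosolic ribosomal protein genes, which are far more abundant, were nearer to expectation in 13EP12 (75 against 81.9) and 15CP6 (59 against 78.1). Single members could take much of a small library's total. MRPL19 held 44.2% of the member counts of 14HP26, MRPS15 held 55.0% of those of 14HP33, and MRPL49 held all 17 member counts of 15CP4, while the most abundant member of 15CP1 (MRPL18) held 3.72%.

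**Figure D1:**
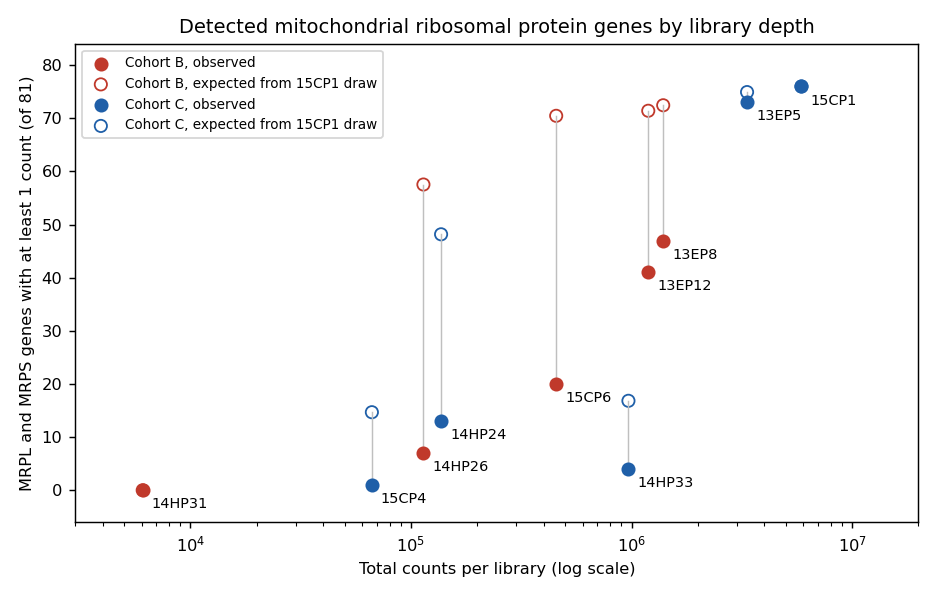
Members with at least 1 count (filled points, of 81) against total counts per library on a log axis, in red for Cohort B and blue for Cohort C; open points give the number expected if the library's member counts were drawn from those of 15CP1. The open points of 14HP26 (57.5) and 15CP6 (70.5) lie far above the filled ones (7 and 20), and those of 13EP5 nearly coincide.

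The members together took about 0.1% of the counts in the deep libraries of both cohorts. The share was 0.0824% in 13EP12 (95% Wilson interval 0.0775 to 0.0878%), 0.103% in 13EP8 (0.0980 to 0.109%), 0.115% in 13EP5 (0.112 to 0.119%) and 0.0926% in 15CP1 (0.0902 to 0.0951%). The intervals cover counting error only. The Cohort B values lay on both sides of that of 15CP1 and below that of 13EP5. Among the other libraries the share was 0.162% in 15CP6 (0.151 to 0.174%) and 0.145% in 14HP26 (0.124 to 0.169%) of Cohort B, and 0.0730% in 14HP24 (0.0600 to 0.0888%), 0.0256% in 15CP4 (0.0160 to 0.0409%) and 0.00207% in 14HP33 (0.00134 to 0.00319%) of Cohort C. In 14HP31 it was 0 of 6076 counts, which allows a share of up to 0.0494%. The cohort medians were 0.103% and 0.0730%, with means of 0.0986 ± 0.0636% in Cohort B and 0.0617 ± 0.0470% in Cohort C (SD, n = 5 each), a difference smaller than either SD. With the MTRNR2L genes left out of the total, 14HP33 rose to 0.0159%, still the lowest library with a member count, and the medians were 0.107% and 0.0957%.

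Relative to other housekeeping systems the members were steady in the deep libraries. Their counts equalled 2.38% of the cytosolic ribosomal protein counts in 13EP12, 2.52% in 13EP8, 2.63% in 13EP5 and 2.27% in 15CP1. They equalled 38.4%, 49.2%, 41.8% and 42.0% of the respiratory chain gene counts in those libraries. In the shallower libraries the first ratio ran from 3.36% in 14HP33 to 37.7% in 14HP26, and the second from 16.8% in 14HP33 to 111% in 15CP6. In 15CP4 no respiratory chain gene had a count. The large subunit genes held 59.1% of the counts on both subunits in 13EP5, 59.7% in 15CP1, 55.5% in 13EP8 and 82.0% in 13EP12, taking the subunit from the symbol. With MRPS18A and MRPS30 counted in the large subunit these shares were 69.0%, 64.0%, 63.4% and 85.8%, and 13EP12 stood highest of the 4 either way. The 10 T cell markers summed to 2030 and 1843 counts in 13EP12 and 13EP8 and to 4991 and 8990 in 13EP5 and 15CP1, and to 0 in 14HP31. As shares of all counts these were 0.170 and 0.132% in 13EP12 and 13EP8, and 0.149 and 0.152% in 13EP5 and 15CP1.

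**Figure D2:**
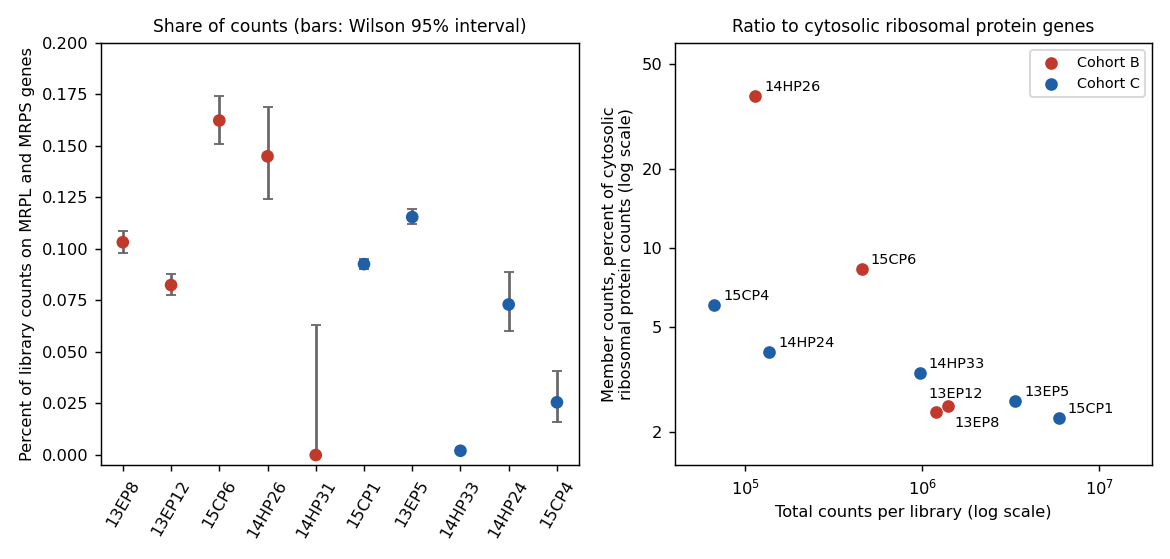
Left, percent of each library's counts on the members with the Wilson 95% interval, by cohort (red, Cohort B; blue, Cohort C) and falling total; right, member counts as a percent of cytosolic ribosomal protein counts against total counts, both axes logarithmic, without 14HP31. The 4 deepest libraries lie between 2.27 and 2.63% on the right, and 14HP26 reaches 37.7%.

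No member was found in more than 7 libraries. By number of libraries with a count, 3 members had none, 6 had 1, 6 had 2, 25 had 3, 24 had 4, 10 had 5, 6 had 6 and 1 had 7. Of the 12776 member counts, 91.9% came from the 4 deepest libraries and 72.9% from 13EP5 and 15CP1. Both of these held 71 members in common. By contrast 13EP12 and 13EP8, of similar depth, shared 26, while 15 were seen only in 13EP12, 21 only in 13EP8 and 19 in neither. Across the 81 members, Spearman's rho of the counts was 0.657 between 13EP5 and 15CP1, 0.506 between 13EP8 and 13EP5, 0.443 between 13EP12 and 15CP1 and 0.192 between 13EP12 and 13EP8. These describe genes within libraries, which are not independent replicates.

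Of the large subunit genes, MRPL37 was the most widely detected. Its counts were 10 in 13EP12, 53 in 13EP8, 19 in 14HP26 and 58 in 15CP6 of Cohort B, and 77 in 13EP5, 27 in 14HP24 and 86 in 15CP1 of Cohort C, with 0 in the other 3 libraries. MRPL51 had 26 in 13EP12, 28 in 13EP8, 38 in 15CP6, 148 in 13EP5, 4 in 14HP33 and 198 in 15CP1. Both were thus present in each of the 4 deepest libraries. MRPL53 had 89 counts in 13EP12 and 10 in 13EP8 against 117 in 13EP5 and 114 in 15CP1, with 10 in 15CP6 and 1 in 14HP24. MRPL18, whose protein also helps carry 5S ribosomal RNA into mitochondria, had 58 and 22 counts in 13EP12 and 13EP8, 271 and 203 in 13EP5 and 15CP1, and 3 in 14HP24. MRPL9 was detected in the same number of libraries as MRPL53, with 5, 5 and 21 counts in 13EP12, 13EP8 and 15CP6 and 23, 10 and 88 in 13EP5, 14HP24 and 15CP1. Its CPM ran from 3.82 in 13EP8 to 57.7 in 14HP24, with 4 libraries at 0.

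Other large subunit genes were patchy even at depth. MRPL44, a protein with an RNase III-like fold whose loss in humans causes a combined respiratory chain deficiency, had 100 counts in 13EP8, 92 in 13EP5 and 119 in 15CP1 but 0 in 13EP12. MRPL3, which lies close to the peptidyl transferase centre, had 28 in 13EP8, 9 in 15CP6, 42 in 13EP5, 53 in 15CP1 and 0 in 13EP12. MRPL47 had 13, 62, 10 and 122 in 13EP12, 13EP8, 13EP5 and 15CP1 and 4 in 14HP33. MRPL12, the stalk protein that recruits translation factors, had 8 counts in 13EP5 and 44 in 15CP1 and none elsewhere.

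Among the genes with MRPS symbols, MRPS18A, whose protein is placed in the large subunit, had 32, 59, 26 and 86 counts in 13EP12, 13EP8, 14HP26 and 15CP6 and 85 and 104 in 13EP5 and 15CP1, and was at 0 in 14HP33, 14HP24 and 15CP4 of Cohort C and in 14HP31. MRPS15 had 4, 29 and 3 in 13EP12, 13EP8 and 15CP6 and 133, 11 and 165 in 13EP5, 14HP33 and 15CP1. MRPS34, needed for the stability of the small subunit, had 10, 41 and 6 in 13EP12, 13EP8 and 15CP6 and 55, 4 and 63 in 13EP5, 14HP24 and 15CP1. MRPS6 was at 0 in 13EP12 and had 15 counts in 13EP8, 99 in 15CP6, 25 in 13EP5, 23 in 14HP24 and 92 in 15CP1. These 4 genes were present in both cohorts, and none had cohorts that were apart. MRPS16, whose loss causes a fatal neonatal respiratory chain disorder, had 8 and 127 in 13EP12 and 13EP8 and 58 and 131 in 13EP5 and 15CP1. MRPS12, the protein of the decoding centre that sets accuracy, was scarce, with 1 count in 13EP8, 12 in 13EP5 and 15 in 15CP1.

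MRPL23, MRPL23-AS1 and MRPS18B had no count in any library, and all 3 were also listed at 0 in the FPKM table. The limit that a count of 0 allows was lowest in 15CP1, at 0.509 CPM (3 of 5895609 counts). A count in 1 library was seen for MRPL42P5 (7 in 13EP5), MRPL54 (2 in 15CP1), MRPL36 (1 in 13EP5), MRPL45 (1 in 15CP1) and MRPS24 (1 in 15CP1). The sixth such member, named after its value was seen, was MRPS36 with 1 count. The pseudogene MRPS31P5 had 1 count in 13EP12, 50 in 13EP5 and 49 in 15CP1, and MRPL45P2 had 1 in 13EP5 and 2 in 15CP1. Reads from a gene and a near-identical copy can be divided by counting, so the values of MRPS31P5, MRPL42P5 and MRPL45P2 and of their parent genes MRPS31, MRPL42 and MRPL45 are uncertain, as is any antisense count, since how strand was used in counting is not given in the sources used here.

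In FPKM, which corrects for gene length, MRPL18 was highest of the members in 13EP5 with 718, and had 54.3 in 15CP1. MRPL51 was highest in 15CP1 with 61.5, and had 221 in 13EP5. In 13EP5 and 15CP1 respectively, MRPS30 had 483 and 15.6, and MRPS18A 196 and 16.0. The order of MRPL51 and MRPS30 was opposite in the 2 deepest libraries. The median FPKM over the 10 libraries was above 0 only for MRPL47 (2.11) and MRPL19 (0.486). Of the 282 values with at least 1 count, 101 were listed at an FPKM of 0, so FPKM detected fewer members, with 58 in 13EP5, 65 in 15CP1, 15 in 13EP12 and 29 in 13EP8.

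**Figure D3:**
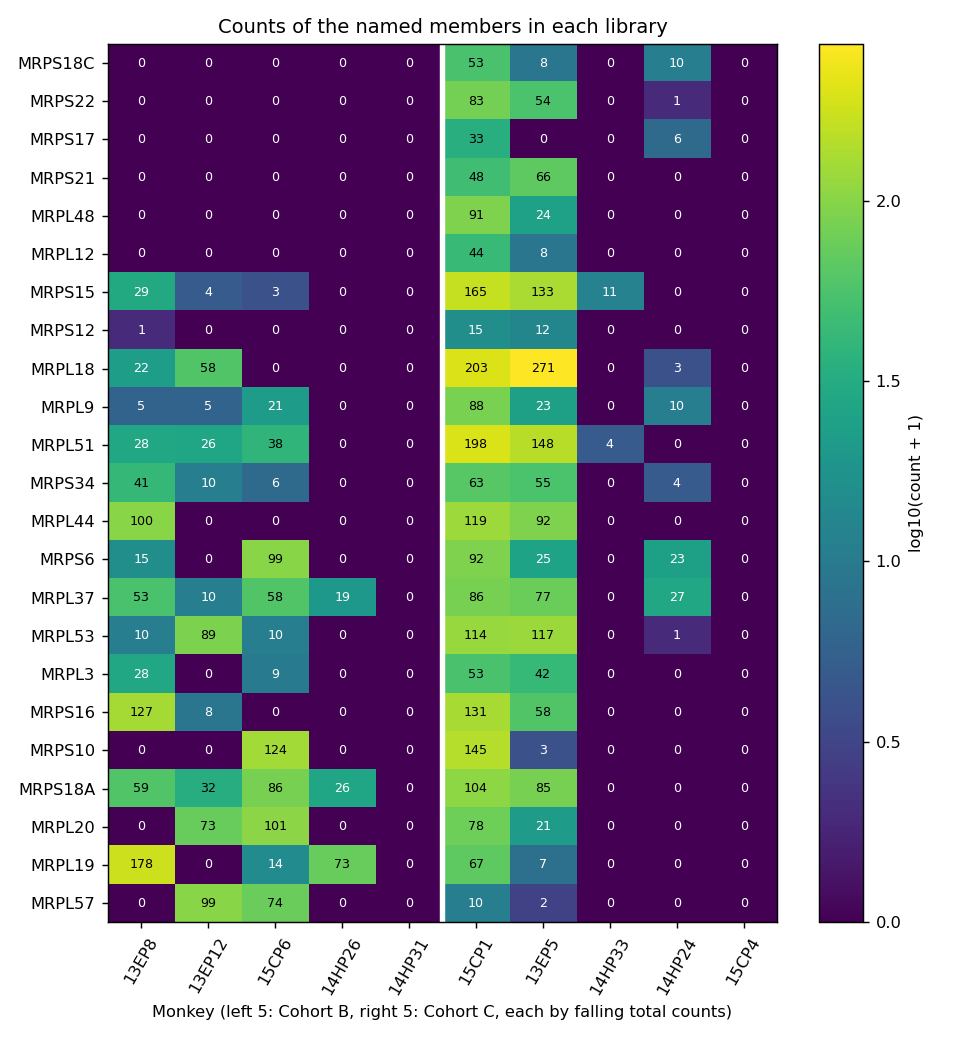
Deposited counts of the named members (rows, ordered by log2 fold change) in each library (columns, Cohort B left of the white line, each cohort by falling total), with colour on a log10(count + 1) scale. The rows at the top are 0 in all 5 Cohort B libraries, and the columns of 14HP31 and 15CP4 hold only 0.

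Cohort C was compared with Cohort B, the comparison that asks what differed in Tr1 cells after ADL infusions, with the quasi-likelihood test of edgeR on 14168 genes, each with 10 or more counts in all. Of the members 71 were tested and 10 fell below that minimum. None of the 71 passed the filter of the study's methods, a raw p under 0.01 and a change of 1.5-fold or more, while 6.43% of all tested genes were called by it (911 genes, 152 higher and 759 lower in Cohort C). With DESeq2's size factors in edgeR the split of all calls moved from 16.7 to 33.8% higher, and 6 members were called (8.45% of 71) where 10.8% of all tested genes were. After Benjamini-Hochberg adjustment over all genes none passed 0.05 in edgeR, where 2923 had an unadjusted p under 0.05, and 2 genes, neither a member, passed in DESeq2. The lowest edgeR adjusted p of a member was 0.141. At an unadjusted p under 0.05, 7 members were higher and 2 lower in Cohort C. The corresponding shares of all tested genes were 12.5% and 8.12%, so the 7 of 71 on the higher side were not more than the background. No member had cohorts that did not overlap in CPM, against 0.0141% of tested genes (2 genes). The TMM factors behind CPM ran from 0.0725 in 14HP33 to 4.23 in 14HP31.

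In edgeR more members had a log2 fold change above 0 than below it, without a call, and this turned with the method. The log2 fold change (Cohort C over Cohort B) was above 0 for 46 members and below 0 for 25, against 53.5% of all tested genes above 0. With DESeq2's own test 33 were above and 38 below 0 (median -0.06), where 40.1% of all tested genes were above 0 (median -0.31). With the filterByExpr filter, which left 4 members, 1 was above and 3 below (median -0.51). In edgeR the median was 0.51 over the members and 0.16 over all tested genes. The direction of the bulk of genes depended on the scaling, since the median of all genes was -0.03 with DESeq2's size factors and -0.11 with library size only. Relative to the median of all genes the members lay 0.35, 0.34 and 0.44 higher under these 3 scalings, and 0.25 higher with DESeq2's own test. With filterByExpr, however, the 4 members left lay at -0.33 relative to it. By symbol, the large subunit genes had 28 above and 16 below 0 (median 0.51), and the small subunit genes 17 and 9 (median 0.29). The cytosolic ribosomal protein genes had 58 above and 24 below 0 (median 0.22), with 1 called, and the respiratory chain genes had 49 and 30 (median 0.50), with none called. By CPM the highest library of a tested member was in Cohort B for 30 of 71, and among single libraries it was most often 13EP5 (17) or 15CP1 (16).

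The members with the smallest p on the higher side had no count in any Cohort B library, and they rested on 13EP5, 15CP1 and 14HP24. They reached the minimum of 10 summed counts through Cohort C alone. MRPS18C, 1 of 3 related proteins of this name, had 8 counts in 13EP5, 10 in 14HP24 and 53 in 15CP1. Its log2 fold change was 7.06 (SE 2.75, edgeR adjusted p = 0.141), a fitted value that is no bound. Set against a floor of 3 counts over the 5 Cohort B libraries, its pooled level in Cohort C was 8.72-fold that floor. This ratio and those below pool the libraries of each cohort, and the Cohort C pool is mostly 13EP5 and 15CP1. The floor holds only the counting error of the Cohort B zeros, and the Cohort C level is taken as observed. The ratios are therefore no lower bounds. They leave out the spread between libraries and the patchy detection of members in sparse libraries. MRPS22, whose mutation causes respiratory chain deficiency, had 54 counts in 13EP5, 1 in 14HP24 and 83 in 15CP1 (log2 fold change 6.33, SE 2.51, edgeR adjusted p = 0.141, 17.0-fold the floor). MRPS17 had 6 in 14HP24 and 33 in 15CP1 (4.79-fold the floor), and was at 0 in 13EP5. MRPS21 had 66 in 13EP5 and 48 in 15CP1 (14.0-fold) and MRPL48 had 24 and 91 (14.1-fold). MRPL12, with its 8 and 44 counts, was at 6.39-fold the floor, and MRPS7 was the seventh member with a p under 0.05. In each of these members, 2 or 3 Cohort C libraries were also at 0, so the cohorts overlapped. By a two-sided exact permutation test of log2(CPM + 1), p was 0.167 for MRPS18C and MRPS22 and 0.444 for MRPS17, MRPS21, MRPL48 and MRPL12. These values were fixed by the zeros. With counts in only 3 or 2 libraries, all in Cohort C, no smaller p was possible, so the test cannot decide for these members. Where 1 cohort lies wholly above the other, the smallest p of this design is 0.00794.

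On the lower side, MRPL57 had 99 counts in 13EP12 and 74 in 15CP6 against 2 in 13EP5 and 10 in 15CP1 (log2 fold change -5.76, SE 2.58, edgeR adjusted p = 0.172). MRPL19 had 178 in 13EP8, 73 in 14HP26 and 14 in 15CP6 against 7 in 13EP5 and 67 in 15CP1 (log2 fold change -4.90, SE 2.38, edgeR adjusted p = 0.215). Both were at 0 in one of the Cohort B libraries over 1000000 counts, MRPL57 in 13EP8 and MRPL19 in 13EP12. MRPL20 had 73 in 13EP12, 101 in 15CP6, 21 in 13EP5 and 78 in 15CP1 (log2 fold change -3.45, SE 2.26, edgeR adjusted p = 0.462). For MRPS18A the mean log2(CPM + 1) was 5.04 ± 3.04 in Cohort B and 1.86 ± 2.54 in Cohort C (SD, n = 5 each, exact permutation p = 0.0794, adjusted p = 0.926 over the 25 named members so tested). That was the lowest permutation p of the named members. The log2 fold change of MRPS18A was -3.00 in edgeR (SE 2.19) and 0.32, in the opposite direction, in each of the 3 limma fits to FPKM, and that of MRPL57 was 0.0032 in the fit with a pseudocount of 0.1. With a pseudocount of 1 the median of all genes was 0.745, or 0.432 without a minimum of mean FPKM. With 0.1 it was 1.01. Both members thus lay below the median of all genes in these fits. MRPS10 had 124 counts in 15CP6, 3 in 13EP5 and 145 in 15CP1 and none elsewhere, and its log2 fold change of -2.99 (SE 2.21) became 6.08 without 15CP6.

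The 10 most widely detected members differed among themselves. MRPL19 and MRPS18A had the negative values above, and MRPS15 had a log2 fold change of 2.62 (SE 2.21, edgeR adjusted p = 0.707). The 11 MRPS15 counts of 14HP33 stood at 157 CPM after TMM scaling, against 41.5 in 13EP5 and 34.2 in 15CP1. For the other 7 the estimate was smaller than its SE. It was 0.10 for MRPL51, -0.57 for MRPL37, -0.70 for MRPL53, -0.08 for MRPS34, 0.51 for MRPL9, 1.01 for MRPL18 and -0.57 for MRPS6, with SEs between 2.04 and 2.09. In MRPL37, for example, the mean log2(CPM + 1) was 4.50 ± 2.92 in Cohort B and 3.23 ± 3.18 in Cohort C (SD, n = 5 each, exact permutation p = 0.548). With errors of this size, differences of several fold could not be resolved.

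**Figure D4:**
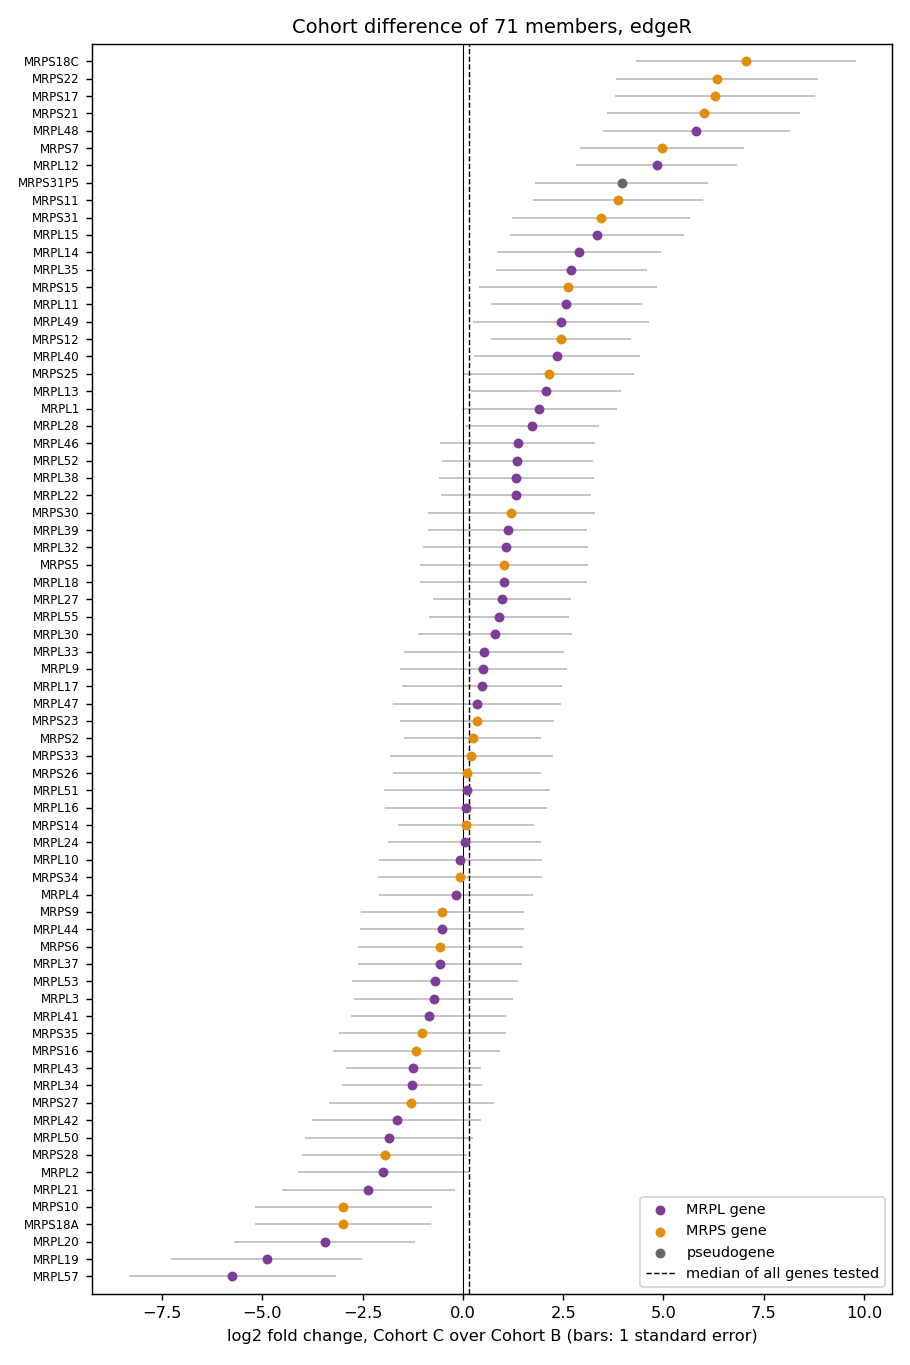
Log2 fold change of Cohort C over Cohort B by edgeR for the 71 members tested (points; bars, 1 standard error), sorted, in purple for MRPL genes, orange for MRPS genes and grey for the pseudogene, with a dashed line at the median of all genes tested (0.16). The points form 1 continuous range from -5.76 to 7.06 with both subunits mixed along it, and the upper 7 are at 0 in Cohort B.

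Other genes of mitochondrial gene expression gave no call either. Mitoribosomal proteins under other names had 2 of 2 large subunit genes and 3 of 4 small subunit genes above 0, with no p under 0.05. Among them PTCD3, a small subunit protein, had 78 and 117 counts in 13EP12 and 13EP8 and 42, 214 and 36 in 13EP5, 15CP1 and 15CP4, and DAP3, a GTP-binding small subunit protein, had 1, 43 and 31 in 13EP12, 13EP8 and 15CP6 and 58 and 106 in 13EP5 and 15CP1. ICT1, which releases stalled peptides from within the large subunit, had 18, 13, 89 and 30 in 13EP12, 13EP8, 13EP5 and 15CP1.

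The 17 translation factors tested were divided evenly, with 8 above and 9 below 0 (median log2 fold change -0.02) and no p under 0.05. LRPPRC, which stabilises mitochondrial messages, had 423 counts in 14HP26, more than the 165 on all members in that library, and 8 and 175 in 13EP12 and 13EP8 against 233 and 418 in 13EP5 and 15CP1 (log2 fold change -3.99, SE 2.13, edgeR adjusted p = 0.271). The initiation factor MTIF2 had 40, 29 and 31 counts in 13EP12, 13EP8 and 15CP6 and 161 and 379 in 13EP5 and 15CP1.

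Of the aminoacyl-tRNA synthetases 21 were tested, with 12 above and 9 below 0 (median 0.28), and 3 (14.3%) were higher at an unadjusted p under 0.05, near the 12.5% of all tested genes. Factors of mitoribosome assembly and ribosomal RNA modification had 15 above and 10 below 0 (median 0.32), with 2 (8.0%) higher at that level, and those of mitochondrial DNA transcription and replication had 7 and 4 (median 0.66), also with 2 (18.2%). POLG, the mitochondrial DNA polymerase, matched MRPL37 with counts in 7 libraries, from 3 in 14HP26 to 394 in 15CP1.

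Markers of other cell types were present in the same libraries and also varied. The 10 monocyte markers summed to 1610 and 1692 counts in 13EP12 and 13EP8 and 428 in 15CP6, and to 988 in 13EP5, 78 in 14HP24, 2 in 14HP33 and 7615 in 15CP1, and were at 0 in the other 3. As shares of all counts, monocyte markers were 0.135% in 13EP12, 0.122% in 13EP8, 0.129% in 15CP1 and 0.0296% in 13EP5. Platelet markers reached 885 counts in 13EP5 and at most 26 elsewhere. B cell markers reached at most 122 counts in Cohort B (0.00876% of 13EP8) and 499 in Cohort C (0.00846% of 15CP1). CD8 and NK cell markers ranged from 0 to 258 in Cohort B (0.0217% of 13EP12) and from 0 to 455 in Cohort C (0.00772% of 15CP1). Erythroid markers had counts in 14HP26 (6), 15CP6 (188) and 14HP33 (93). The part of these cells in the member values was not tested.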

How the data were processed

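RNA from sorted Tr1 cells of 10 monkeys had been sequenced as paired-end reads. The authors aligned them to human hg38 using HISAT2 2.0.2 and deposited raw counts per gene. The authors also deposited FPKM values, which correct for gene length and library size and were made with Cuffdiff 2.2.1. Counting options and the handling of strand and multiply mapped reads are not given in the sources used here. Reads of macaque transcripts that differ most from human ones may have been lost. The counts cover 26484 rows and the FPKM values 26381. Of the gene names, 2 in date form are repeated. Their rows were kept as separate genes in the cohort fits and in the library totals, and were left out when members and lists were taken. Cohorts were taken from the labels. Depth ranged from 6076 to 5895609 counts per library, and 3 counts were taken as the floor of a library. Wilson intervals (95%) and these floors hold only the error of counting.

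The cohorts were compared (Cohort C over Cohort B) in R 4.3.3, using edgeR 4.0.16 with its quasi-likelihood test after TMM normalization, on 14168 genes with a sum of 10 counts or more, without covariates. The calling filter was a raw p under 0.01 and 1.5-fold. Benjamini-Hochberg adjustment, with a threshold of 0.05, was applied as well. Standard errors are log2 fold changes divided by the root of the F statistic. For named members a two-sided exact permutation test of log2(CPM + 1) enumerated 252 assignments (scipy 1.17.1, Python 3.11.15). Each library is 1 monkey, so p-values rest on the spread between libraries. In that spread, differences between monkeys and in library depth and detection cannot be told apart. Expected detection was calculated by drawing counts without replacement. The scripts were tested on simulated data. Alternatives were DESeq2 1.42.0, limma 3.58.1 (voom, and log2 FPKM with pseudocounts of 1 and 0.1), edgeR's exact test, other scalings and filters, the replicate block, an index suffix in the labels, minimum totals and leaving out each library. The last 2, libraries of at least 1000000 counts and detection drawn from 15CP1, were chosen after seeing the data.

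Members named in the text were the 10 found in the most libraries, the 5 with the smallest p in each direction, those in 1 or no library (up to 5 each), those with a median FPKM above 0 (up to 6), MRPL12, MRPL3, MRPL44, MRPS12, MRPS16, MRPS22 and MRPS34 for known roles, and the pseudogene and antisense entries. From each companion list the 3 genes in the most libraries could be named. The members and lists were chosen with earlier results of these data known. Sequences of the members were not used here.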

Additional observations from a re-analysis of the deposited data

Results flagged for a closer look

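In 28 groups of 4 or 5 libraries examined, 3 libraries stood far from the rest of their cohort by Dixon's criterion. The groups were 10 members (the 5 with the smallest p in each direction) and 4 measures of detection, share and subunit balance, each in both cohorts. Of the groups, 5 were at 0 throughout. The nominal rate of about 1 flag in 20 groups does not hold for values that are mostly 0, so the flags were not compared with chance. Log2(CPM + 1) of MRPS10 was 8.11 in Cohort B monkey 15CP6, and the other 4 libraries were at 0. Log2(CPM + 1) of MRPS10 was 4.96 in Cohort C monkey 15CP1, where 3 of the other libraries were at 0 and 13EP5 was the nearest. The large subunit share of the subunit counts was 100% in Cohort C monkey 15CP4, which held 17 member counts, all of them on MRPL49.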

How the results depend on the processing

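The number of genes called depended strongly on the method. Against 911 genes, 1525 were called with DESeq2's size factors in edgeR, 10 with filterByExpr, 61 with edgeR's exact test, 69 with DESeq2, 67 with limma-voom, 98 with the index suffix as a covariate, 326 in libraries of at least 100000 counts, and 117 in libraries of at least 1000000 counts. With limma on FPKM, 2 genes were called with a pseudocount of 1, 3 with 0.1 and 1 without the filter. Leaving out 1 library gave 76 to 695, with 76 without 13EP5 and 143 without 15CP1. Members called were 6 with DESeq2's size factors (MRPL19, MRPL48, MRPS17, MRPS18C, MRPS21 and MRPS22), 0 to 1 on leaving out a library (MRPS18C without 15CP4), and 0 under every other alternative run. Without 15CP4 that was 1.41% of the members tested, where 4.3% of all tested genes were called.

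Members higher in Cohort C numbered 1 of 4 tested (3 lower, and a median -0.33 relative to all genes) with filterByExpr, and 36 to 52 (19 to 34 lower) on leaving out a library, with medians of 0.10 to 1.88. DESeq2 gave 38 lower and a median of -0.06, which was 0.25 above that of all genes. FPKM gave 13, 11 and 13 lower in the order above, where 75.1, 72.6 and 72.9% of all genes were above 0 (medians 0.745, 1.01 and 0.432). The exact permutation test passed 0.05 for 0 to 2 named members on leaving out a library. The log2 fold change of MRPL57 was 0.0032 in FPKM with a pseudocount of 0.1, and that of MRPS18A was 0.32 in all 3 FPKM fits, each below the median of all genes in its fit. That of MRPS10 was 8.27 in libraries of at least 1000000 counts and -6.52 to 6.08 on leaving out a library. The cause of these changes was not tested.

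With the replicate block no gene was called at p under 0.01 and 1.5-fold (edgeR), the median of the members was 1.09, and MRPS10 was at 0.63. The replicate numbers name different monkeys in the cohorts, same-numbered libraries correlated between -0.431 and 0.375, and none correlated best with its own number, so the numbers do not pair the libraries.

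The median number of members detected was 20 in Cohort B and 13 in Cohort C. It was 7 in Cohort C above 3 counts, and 13.5 to 30.5 and 8.5 to 43 on leaving out a library. The median expected at the smallest depth was 4.32 and 3.29. If the same number of member counts were drawn from those of 15CP1, the median expected would be 70.5 and 48.2. Outside the 4 deepest libraries no single library had a count for more than 20 of the 81 members. In 14HP33, with 968423 counts of which 87.0% were on the MTRNR2L genes, it was 4.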
